A study of Mus musculus with 4 samples.

Results

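The thioredoxin and peroxiredoxin system was examined in mouse induced regulatory T (iTreg) cells cultured with or without ferrous iron. Its members were taken by gene symbol, matched to mouse Ensembl gene IDs, and were Txn1, Txnrd1, Txnip, Prdx1 to Prdx6 and Srxn1. These are 10 of the 47729 gene rows of the counts, and all 10 were among the 13732 genes that passed the filter on low counts and were tested. Naïve CD4 T cells of C57BL/6 mice (spleen per the labels, with lymph node cells added per the study's methods) were activated through CD3 and CD28 and cultured for 4 days. Both groups received the same differentiation medium, with TGF-β at 5 ng/mL, IL-2 at 100 U/mL, and antibodies against IL-4 and IFN-γ at 5 µg/mL each. One group was given FeSO4 at 50 µM and the other PBS (Mock), with 2 libraries in each, which per the methods came as pairs from independent experiments. Mice were 6 to 8 weeks old per the study's reporting summary, the number pooled per library was not given in the sources used here, and no sort of the cultured cells is described for these libraries. The culture medium of both groups also held β-mercaptoethanol, a thiol reductant.

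Thioredoxin is a small protein that passes electrons to oxidized proteins through a pair of cysteines, and thioredoxin reductase, a selenoprotein, recharges it from NADPH. Peroxiredoxins use a reactive cysteine to reduce hydrogen peroxide and most of them depend on thioredoxin to be reset, while sulfiredoxin rescues peroxiredoxins whose cysteine has been oxidized too far. Txnip, an α-arrestin, binds reduced thioredoxin and also limits glucose uptake by drawing glucose transporters into the cell. In T cells the pathway supplies reducing power for DNA synthesis and sets how much peroxide reaches signaling proteins, and several of its genes are textbook targets of the antioxidant factor NRF2.

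With FeSO4, 6 of the 10 genes rose (Txn1, Txnrd1, Prdx1, Prdx3, Prdx4 and Srxn1), Txnip fell, and Prdx2, Prdx5 and Prdx6 did not pass the test. A call here means an adjusted p under 0.05 in edgeR's quasi-likelihood test, with Benjamini-Hochberg adjustment over all 13732 genes. Of all tested genes, 10.9% were called higher (1491) and 9.17% lower (1259) by the same rule. On library sizes without TMM the counts were 980 and 1810, and the same number of the 10 genes was called in each direction. The median log2 fold change was 0.30 over the 10 genes and close to 0 over all genes tested, and the median absolute change was 0.39 against 0.20. The 10 genes were chosen with earlier results of these data known, so their values beside those of all genes are a description only. Both FeSO4 libraries lay above both Mock libraries for 8 of the 10 genes and below them for 1, where 30.1% and 29.4% of all tested genes did so. The study's own threshold asks for a log2 fold change of 0.5 or more in either direction and p under 0.05 before adjustment. It was passed by 2 higher genes (Txn1 and Srxn1) and 1 lower gene (Txnip), against 4.67% and 5.73% of all tested genes.

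Gene rows held 35183187 to 40859178 reads per library, so 3 counts, the most that a count of 0 allows, equaled 0.0717 to 0.0876 CPM. CPM are counts divided by library sizes scaled by the trimmed mean of M values (TMM), and are comparable between libraries. The biological coefficient of variation was 8.24%. Of 5 T cell markers (Cd3e, Cd3g, Cd4, Cd28 and Lck) none was at 0 and their sum was 2099 to 2184 CPM in Mock and 2386 to 2388 CPM in FeSO4. Cd3g (log2 fold change 0.50, adjusted p = 2.04e-05) and Cd28 (0.21, adjusted p = 0.0475) rose. Cd3e (0.13), Cd4 (0.13) and Lck (-0.02) were not called. The sum of 5 regulatory T cell markers was 2370 and 2681 CPM in Mock, against 2201 and 2406 CPM in FeSO4, and most of it was Il2ra. Of these 5, Foxp3 (-0.59, adjusted p = 0.000223) and Ikzf2 (-0.79, adjusted p = 0.000986) fell, and Il2ra (0.02), Ctla4 (0.17) and Tnfrsf18 (-0.16) were not called, all as log2 fold changes. B cell markers summed to 2.38 to 3.38 CPM, myeloid markers to 1.84 to 6.31 CPM and CD8 T cell markers to 9.04 to 11.0 CPM, and the NK cell markers Ncr1 and Klrb1c were at 0 in every library. The myeloid gene Lyz2 stood apart in Mock replicate 1, with 164 counts. Mock replicate 2 had 8 counts of it and each FeSO4 library 0. These are bulk samples, so a smaller share of cells with a transcript and less of it per cell cannot be told apart.

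**Figure D1:**
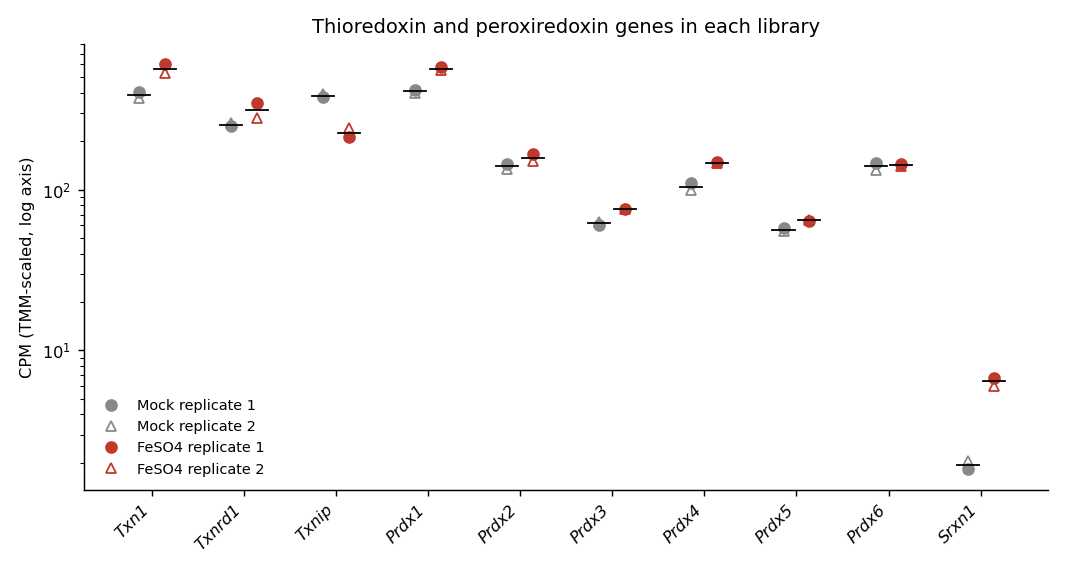
CPM of each gene in each library on a log axis, with Mock in gray, FeSO4 in red, replicate 1 as circles, replicate 2 as triangles and the group means as black lines. The libraries of the groups are separate for every gene except Prdx6 (132 and 147 CPM in Mock, 141 and 145 CPM in FeSO4), and Srxn1 is lowest in all 4 libraries, as it is per kilobase of exon.

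The promoters of 9 of the 10 genes were searched for letters that known regulators bind. NRF2 binds the antioxidant response element, the MondoA-Mlx dimer binds the carbohydrate response element of Txnip, and AP-1, formed by Fos and Jun proteins, binds a site that was added to the search after the Prdx1 match had been seen. The sequences below run 5′ to 3′ on the plus strand, which is the strand of each gene shown, and come from RefSeq promoters (GRCm38.p6) of 250 bases before to 50 after a gene start. Capitals mark the match, which for the antioxidant element core TGACNNNGC is on the opposite strand in all 3 genes, for the paired carbohydrate element (CACGNG, any 5 bases, CACGNG) is on the strand of Txnip, and for the AP-1 site TGAGTCA is on the strand of Srxn1.
Prdx1, antioxidant element core, chr4:116685456-116685485: cagggaaagcGCTGAGTCAtcccccgtagg
Srxn1, antioxidant element core, chr2:152105542-152105571: gcagtgggcaGCTAGGTCAgagtgagacac
Txnrd1, antioxidant element core, chr10:82859104-82859133: ctggatttttGCTTTGTCAttctgacacgg
Srxn1, AP-1 site, chr2:152105468-152105497: caaattcacccTGAGTCAgcggccgggcgc
Srxn1, AP-1 site, chr2:152105411-152105440: ctcggagggccTGAGTCAccacgctgtgcg
Txnip, paired carbohydrate element, chr3:96557866-96557895: actgtgCACGAGGGCTGCACGAGcctccag

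The antioxidant core began 133 bases before the start of Prdx1, 92 bases before the second of the 3 Txnrd1 starts listed, and just past the start of Srxn1. Its match in Prdx1 also holds the AP-1 letters, with a further AP-1 site 237 bases before the start, and the AP-1 sites of Srxn1 began 45 and 102 bases before its start. The carbohydrate pair began 85 bases before the start of Txnip. On either strand, the antioxidant core occurred in 12.4% of the 32851 mouse promoters of that length, the AP-1 letters in 5.20%, and the carbohydrate pair in 16 promoters (0.049%), 1 of which was that of Txnip. The promoters of Txn1, Prdx2, Prdx3, Prdx4 and Prdx5 held none of the 3 motifs. A match describes letters in a window and not a bound site, and a window without these letters says nothing of the factors.

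Txn1 (ENSMUSG00000028367), cytosolic thioredoxin, lies at chr4:57943373-57956411 on the minus strand. It had 402 and 374 CPM in Mock replicates 1 and 2, and 602 and 529 CPM in FeSO4 replicates 1 and 2. Both FeSO4 libraries were above both Mock libraries by more than either group's own spread. Its mean rose from 388 ± 20.1 to 565 ± 51.7 CPM (n = 2 each, SD), with a log2 fold change of 0.54 ± 0.07 (SE, 95% interval 0.40 to 0.69, adjusted p = 4.02e-05), or 1.46-fold.

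Txnrd1 (ENSMUSG00000020250; chr10:82833951-82897724, plus strand) encodes the cytosolic reductase that recharges thioredoxin. It had 247 and 260 CPM in Mock, against 347 and 280 CPM in FeSO4, in the order of the replicates. The groups did not overlap, but FeSO4 replicate 2 lay only 19.4 CPM above the higher Mock library, while the FeSO4 libraries differed by much more than that from each other. The log2 fold change was 0.30 ± 0.08 (SE, 95% interval 0.13 to 0.48, adjusted p = 0.0141). Without FeSO4 replicate 1 it was 0.15 with an adjusted p of 0.332, and without Mock replicate 1 it was 0.26 with an adjusted p of 0.0529, so the call for Txnrd1 rested on those libraries. It was also lost when all genes with at least 1 count were tested (adjusted p = 0.176).

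Txnip (ENSMUSG00000038393; chr3:96557957-96561857, plus strand), the thioredoxin inhibitor, moved the other way. Mock libraries had 374 and 395 CPM and FeSO4 libraries had 212 and 240 CPM. Every FeSO4 library was lower than every Mock library, and the gap of 134 CPM was wider than the spread within a group. The mean fell from 384 ± 14.3 to 226 ± 19.9 CPM (n = 2 each, SD), with a log2 fold change of -0.77 ± 0.07 (SE, 95% interval -0.91 to -0.62, adjusted p = 9.5e-07), so Mock was 1.70-fold higher. Txnip had the smallest adjusted p of the 10 genes. In Mock there were 0.931 and 1.06 reads of Txnip for each read of Txn1, and in FeSO4 there were 0.352 and 0.454. In the annotation used for lengths, 606 exonic bases of Txnip overlap the antisense gene Gm15441, which had 9 to 11 counts in each library.

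**Figure D2:**
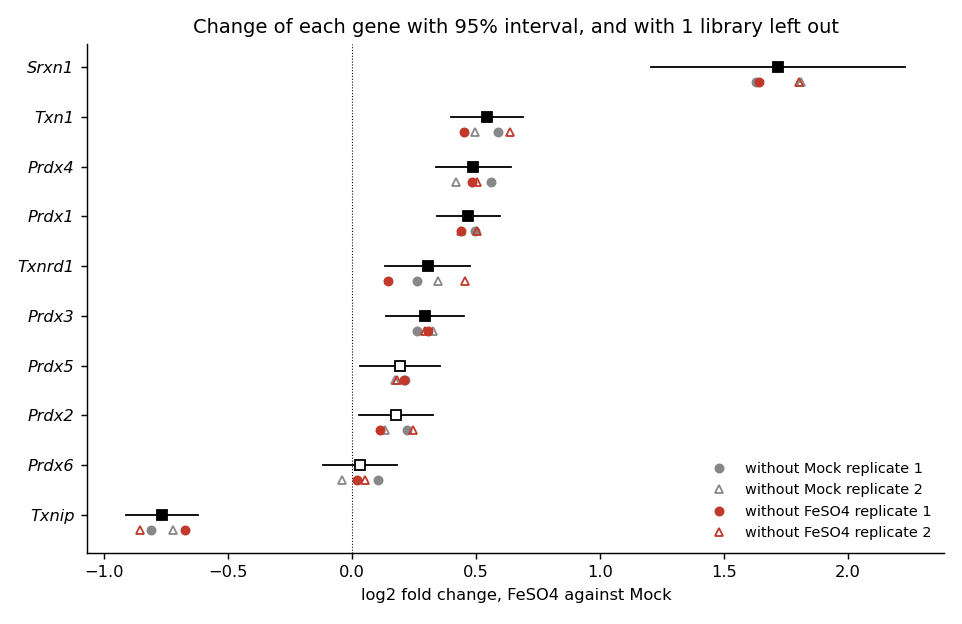
Log2 fold change of FeSO4 against Mock for each gene, with squares for the estimate from all 4 libraries (filled where adjusted p is under 0.05), lines for the 95% interval, and symbols under each line for the estimate with 1 library left out. Txnip is the only gene whose estimate from all libraries lies left of 0 (interval -0.91 to -0.62), and the estimate for Txnrd1 moves most with the library left out, from 0.15 to 0.46.

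Of the 6 peroxiredoxins, 3 were called higher and none lower, where 10.9% and 9.17% of all tested genes were called. All 6 estimates were above 0, and differences between the peroxiredoxins were not tested. Prdx1 (ENSMUSG00000028691; chr4:116685599-116700000, plus strand) encodes a cytosolic enzyme that forms a disulfide between a pair of subunits and is reset by thioredoxin. It had 418 and 398 CPM in Mock, against 578 and 552 CPM in FeSO4, with no overlap and a gap of 134 CPM. The log2 fold change was 0.47 ± 0.06 (SE, 95% interval 0.34 to 0.60, adjusted p = 4.74e-05), or 1.38-fold.

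Prdx2 (ENSMUSG00000005161; chr8:84969622-84974811, plus strand), its closest cytosolic relative, had 145 and 135 CPM in Mock, against 166 and 151 CPM in FeSO4. The libraries did not overlap, but the gap was 6.09 CPM and smaller than the difference between replicates of either group. The log2 fold change of 0.18 ± 0.07 (SE, 95% interval 0.03 to 0.33) did not pass (adjusted p = 0.0882). This outcome depended on the model, as Prdx2 passed edgeR's test with the replicate number as a block (0.18, adjusted p = 0.0295). The methods and labels do not say that equal replicate numbers mark the same experiment. The estimate fell to 0.11 when FeSO4 replicate 1 was dropped, and rose to 0.25 when replicate 2 of that group was dropped. Prdx1 had 2.89 and 2.95 reads for each Prdx2 read in Mock, and 3.48 and 3.66 in FeSO4. Prdx2 is abundant in red blood cells, and the sum of 4 red blood cell markers (Hba-a1, Hbb-bs, Alas2 and Slc4a1) was 25.2 and 19.8 CPM in Mock, against 37.6 and 32.6 CPM in FeSO4. Nearly all of that sum was Hba-a1 (log2 fold change 0.66 ± 0.12, SE, adjusted p = 0.000731). Slc4a1 was at 0 in all libraries, and Hbb-bs was at 0 in all but Mock replicate 1, with 12 counts. Alas2 had 16 and 6 counts in Mock, against 4 and 6 counts in FeSO4, so only Hba-a1 rose. Per the methods, naïve CD4 T cells were purified with an isolation kit before the culture. Whether RNA of red blood cells was part of the Prdx2 value was not tested.

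Prdx3 (ENSMUSG00000024997; chr19:60864066-60874538, minus strand) encodes the mitochondrial enzyme that is served by thioredoxin 2. It had 60.6 and 63.0 CPM in Mock, against 75.5 and 76.1 CPM in FeSO4, and replicates lay close together in both groups. The log2 fold change was 0.29 ± 0.07 (SE, 95% interval 0.14 to 0.45, adjusted p = 0.0101). The call was lost without FeSO4 replicate 2 (0.29, adjusted p = 0.0536) and when all genes with at least 1 count were tested (adjusted p = 0.0632).

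Prdx4 (ENSMUSG00000025289; chrX:155323918-155342272, minus strand) encodes the peroxiredoxin of the endoplasmic reticulum, which passes its oxidizing equivalents to protein disulfide isomerases. It had 110 and 98.9 CPM in Mock, against 148 and 146 CPM in FeSO4, so the groups were well apart. The log2 fold change was 0.49 ± 0.07 (SE, 95% interval 0.34 to 0.64, adjusted p = 0.000142), or 1.40-fold.

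Prdx5 (ENSMUSG00000024953; chr19:6906697-6910106, minus strand), whose product forms its disulfide within 1 subunit and is found in mitochondria, peroxisomes and cytosol, had 57.3 and 55.3 CPM in Mock, against 63.7 and 64.9 CPM in FeSO4. Its groups did not overlap, yet the log2 fold change of 0.19 ± 0.08 (SE, 95% interval 0.03 to 0.36) did not pass (adjusted p = 0.0884). Prdx6 (ENSMUSG00000026701; chr1:161240112-161251210, minus strand), which has a single catalytic cysteine and uses glutathione rather than thioredoxin, had 147 and 132 CPM in Mock, against 145 and 141 CPM in FeSO4. Its groups overlapped, and the 95% interval of its log2 fold change ran from -0.12 to 0.18 (adjusted p = 0.796).

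Srxn1 (ENSMUSG00000032802; chr2:152105524-152111376, plus strand) encodes sulfiredoxin, which restores overoxidized peroxiredoxins of the 2-cysteine type. It had 74 and 86 counts in Mock and 232 and 224 counts in FeSO4, equal to 1.82, 2.06, 6.77 and 6.05 CPM. All 4 values were far above the limit that a count of 0 allows, and the groups were well separated. The mean rose from 1.94 ± 0.165 to 6.41 ± 0.509 CPM (n = 2 each, SD), with a log2 fold change of 1.72 ± 0.24 (SE, 95% interval 1.21 to 2.23, adjusted p = 0.000109), or 3.29-fold. Srxn1 had the largest fold change of the 10 genes and the lowest level.

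Levels were compared between genes as CPM per kilobase of exon. In Mock they ran from Txn1 (369 ± 19.2) through Prdx1 (134 ± 4.57), Txnip (127 ± 4.73), Txnrd1 (63.1 ± 2.32), Prdx4 (49.6 ± 3.73), Prdx2 (45.9 ± 2.24), Prdx3 (41.8 ± 1.15), Prdx6 (38.1 ± 2.95) and Prdx5 (26.3 ± 0.666) to Srxn1 (0.688 ± 0.0583; SD, n = 2 each). Of neighbors in this order, Prdx1 and Txnip, Prdx4 and Prdx2, and Prdx3 and Prdx6 differed by less than the sum of their SDs. In FeSO4 the level of Txnrd1 (78.0 ± 11.9) and that of Txnip (74.5 ± 6.56) exchanged places within their spread, and the other genes kept their order. With the length of a single annotated transcript in place of all exons, Txn1 stayed first and Srxn1 last in Mock, but Txnip came second (260 CPM per kilobase) and Prdx3 ninth, so the order between these ends depends on the length used. Together the 10 genes took 0.200% and 0.196% of gene counts in Mock and 0.228% and 0.214% in FeSO4, with 95% Wilson intervals of 0.199 to 0.202%, 0.194 to 0.197%, 0.227 to 0.230% and 0.213 to 0.216% that cover counting error only. The share of the 6 peroxiredoxins was 0.0958% and 0.0904% in Mock and 0.114% and 0.111% in FeSO4.

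Some of these levels are uncertain because reads that aligned to more than 1 place were not counted. In the NCBIM37 genome, stretches of at least 90% identity over at least 50% of the coding length were found elsewhere for Txn1 (1 copy, 95.6%), Prdx1 (2 copies, up to 97.5%), Prdx2 (2 copies, up to 96.3%) and Prdx6 (1 copy, 92.9%), and none for the other 6 genes. Exons of Prdx2 overlap 177 bases of Rnaseh2a (log2 fold change 0.28, adjusted p = 0.0331), and those of Prdx5 overlap 409 bases of Trmt112 (0.17, adjusted p = 0.162). Ambiguous reads were left out and the strand setting was not stated. Whether reads in those stretches were counted for 1 gene of the pair or dropped is therefore unknown. The same holds for the 606 exonic bases of Txnip that overlap Gm15441.

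Genes around the pathway were described in 7 lists, which held 70 tested genes of 77 and were also chosen with earlier results known. Of these, 21 were called higher and 2 lower, beside the 10.9% and 9.17% of all tested genes. Without FeSO4 replicate 1 the counts were 12 and 1, while those over all genes went from 1491 and 1259 to 893 and 710. With every gene of at least 1 count tested, the list counts were 9 and 0, while those over all genes were 524 and 304. Among 15 other thioredoxin-like and glutaredoxin proteins and thioredoxin reductases, 4 rose and none fell, with a median log2 fold change of 0.15. Glrx, a glutaredoxin that reduces proteins with glutathione, rose by 0.62 ± 0.11 (SE, adjusted p = 0.000707), from 18.0 and 16.9 CPM in Mock to 26.2 and 27.4 CPM in FeSO4. The membrane-bound Tmx1 (0.42 ± 0.07, SE, adjusted p = 0.000564) and the cytosolic Txndc17 (0.43 ± 0.08, SE, adjusted p = 0.00137) rose by less. Txnl1, a thioredoxin-like protein of the proteasome, was called at 0.20 (adjusted p = 0.0448) and lost the call in 7 of 12 alternative analyses. The mitochondrial pair was not called, with Txn2 at -0.03 (adjusted p = 0.818) and its reductase Txnrd2 at 0.38 (95% interval 0.04 to 0.71, adjusted p = 0.106).

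**Figure D3:**
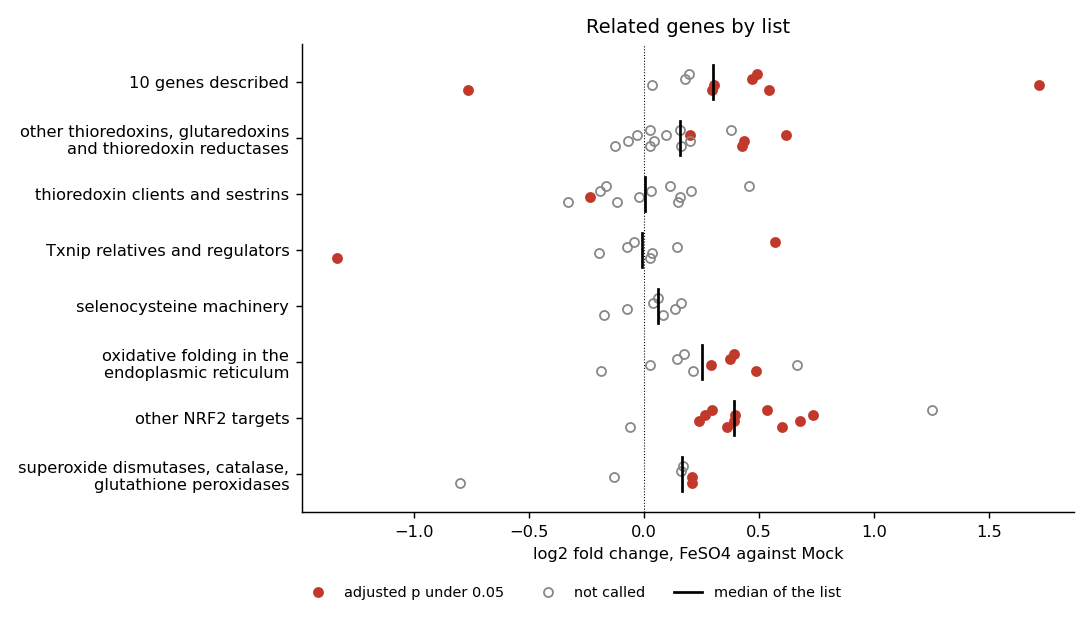
Log2 fold change of FeSO4 against Mock for each tested gene of the 7 related lists and of the 10 genes described, with filled red points for adjusted p under 0.05, open points for genes not called and a black line at the median of each list. Other NRF2 targets have the highest median (0.39), and the Txnip relatives have a median of -0.01 with Arrdc4 far to the left (-1.34).

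Among 12 clients of thioredoxin and sestrins, Sesn3, a sestrin that restrains mTORC1, was the 1 gene called (-0.23 ± 0.07, SE, adjusted p = 0.0258), and the median was close to 0. Sesn3 was not called without Mock replicate 2 (-0.14, adjusted p = 0.229) or without FeSO4 replicate 1 (-0.20, adjusted p = 0.176). The ribonucleotide reductase subunits Rrm1 (0.15, adjusted p = 0.106) and Rrm2 (0.16, adjusted p = 0.0778), which draw electrons from thioredoxin to make deoxyribonucleotides, did not pass. Neither did Map3k5, the kinase ASK1 that thioredoxin holds inactive (-0.19, adjusted p = 0.159).

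Of 11 relatives and regulators of Txnip, 8 were tested, with 1 higher, 1 lower and a median of -0.01. Arrdc4, an α-arrestin that like Txnip is a known MondoA target, had 5.00 and 3.80 CPM in Mock, against 1.55 and 1.92 CPM in FeSO4. Its log2 fold change was -1.34 ± 0.29 (SE, adjusted p = 0.00357), a fall in both FeSO4 libraries. With every gene of at least 1 count tested its adjusted p was 0.0531. Arrdc1, Arrdc2 and Arrdc3 had log2 fold changes of -0.07, 0.03 and 0.02 and were not called. The promoter of Arrdc4 held the antioxidant core and not the carbohydrate pair. Slc2a1, which encodes the glucose transporter GLUT1, had 71.6 and 77.9 CPM in Mock, against 108 and 114 CPM in FeSO4, and rose by 0.57 ± 0.07 (SE, adjusted p = 4.63e-05). Mlx (0.14, adjusted p = 0.231) and Mlxip, which encodes MondoA (-0.20, adjusted p = 0.211), were not called. Arrdc5, Mlxipl and Nlrp3 had 0 to 10 counts per library and were not tested.

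**Figure D4:**
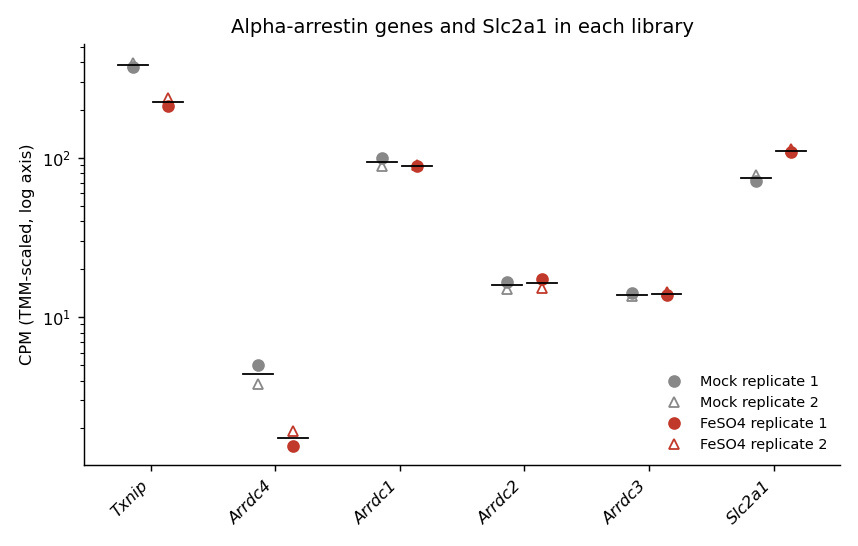
CPM of Txnip, its α-arrestin relatives and Slc2a1 in each library on a log axis, with symbols and lines as in the plot of all 10 genes by library. Txnip and Arrdc4 are lower in both FeSO4 libraries, Slc2a1 is higher (108 and 114 CPM against 71.6 and 77.9 CPM), and the FeSO4 values of Arrdc2 and Arrdc3 lie among their Mock values or beside them.

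The machinery that inserts selenocysteine, which Txnrd1 needs for its active site, had 0 of 7 genes called by edgeR's quasi-likelihood test. Of all tested genes, that test called 10.9% higher and 9.17% lower, and a list of 7 genes is too short for a count of 0 to stand apart from these shares. The list count was 0 also with limma-voom, with DESeq2 and at an unadjusted p under 0.05, for which the share over all genes is not given here. Log2 fold changes in this list ran from -0.17 to 0.16. Of 10 tested genes of oxidative folding in the endoplasmic reticulum, where Prdx4 acts, 4 rose and the median was 0.25. These were the disulfide isomerases Pdia6 (0.49 ± 0.06, adjusted p = 5.34e-05), Pdia3 (0.37 ± 0.06, adjusted p = 0.000263) and P4hb (0.29 ± 0.06, adjusted p = 0.00288), and the oxidase Ero1a (0.39 ± 0.08, all SE, adjusted p = 0.00348, or 0.0904 with every gene of at least 1 count tested).

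Of 12 other NRF2 targets tested, 10 rose and none fell, with a median log2 fold change of 0.39. Tkt, the transketolase of the pentose phosphate pathway, which makes NADPH, rose by 0.53 ± 0.07 (SE, adjusted p = 4.85e-05). The glutathione synthesis subunit Gclm rose by 0.60 ± 0.10 (SE, adjusted p = 0.000332), the quinone reductase Nqo1 by 0.74 ± 0.12 (SE, adjusted p = 0.000465), and the ferritin heavy chain Fth1 by 0.39 ± 0.06 (SE, adjusted p = 0.000396). Without FeSO4 replicate 1 the value of Nqo1 was 0.47, and with every gene of at least 1 count tested neither Gclm (adjusted p = 0.0635) nor Nqo1 (0.0836) was called. DESeq2 called 9 of the 12 genes and did not call Nqo1 (adjusted p = 0.0509). The catalytic subunit Gclc was at -0.06 (adjusted p = 0.647). All 12 of these genes were higher in FeSO4 replicate 1 than in FeSO4 replicate 2, and 11 of them were also higher in Mock replicate 1 than in Mock replicate 2. Of the 10 genes described, 7 were higher in replicate 1 in FeSO4 and 6 in Mock. Among all tested genes, 50.6% were higher in FeSO4 replicate 1. Among 6 tested superoxide dismutases, catalase and glutathione peroxidases, Cat (0.21, adjusted p = 0.0338) and Sod2 (0.21, adjusted p = 0.04999) were called and the median was 0.17, but Cat lost its call in 7 and Sod2 in 11 of 12 alternatives. Sod1 (0.17, adjusted p = 0.0797), Gpx1 (-0.13, adjusted p = 0.186) and Gpx4 (0.16, adjusted p = 0.103) did not pass. All 6 genes of this list were also higher in FeSO4 replicate 1 than in FeSO4 replicate 2.

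Over the 4 libraries, the genes whose pattern was most like that of Txn1 were Tkt, Hmgb3 and Slc25a1, at distances of 0.0177, 0.0321 and 0.0532 in log2 CPM centered on each gene, among 8521 genes of at least 10 mean CPM. The genes most like Txnip were Pde4a (0.0300), ENSMUSG00000102602 (0.0364) and Gadd45g (0.0488). Pde4a had 29.5 and 30.4 CPM in Mock, against 16.3 and 18.3 CPM in FeSO4, and Gadd45g had 30.3 and 32.8 CPM against 17.6 and 20.3 CPM. With 4 libraries in 2 groups, such distances mainly rank genes by how alike their group difference is.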

How the data were processed

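RNA-seq read counts per Ensembl gene, as deposited by the authors and not normalized, were used for 4 libraries. Per the methods the authors aligned reads with STAR to mm9 and tested with DESeq. The submitters' processing notes name Trim Galore 0.6.7, STAR 2.7.9a, featureCounts and mm10. The strand setting and annotation were not given in the sources used here. Rows that name no gene were left out: reads without a feature (4.36 to 6.03% of a library), ambiguous (3.78 to 3.91%), of low quality (0.802 to 0.988%), unaligned (1.80 to 2.31%) or aligned to several places (4.27 to 4.62%).

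Groups came from the labels. Counts were filtered (filterByExpr), TMM-scaled, and compared between FeSO4 and Mock by the newer form of the quasi-likelihood F test in edgeR 4.0.16 (R 4.3.3). The Benjamini-Hochberg adjustment ran over the 13732 genes kept. An SE is the log2 fold change divided by the square root of F. The fit was tested on simulated data, with an outcome that is not reported here. Alternatives were DESeq2 1.42.0, limma-voom (limma 3.58.1), other scalings and filters, the study's threshold, the replicate number as a block, and each library left out in turn. The 10 genes and the 7 lists were chosen with earlier results of these data known. From each list the text names the called genes, or the 4 of smallest p where more were called, and other list genes by known role after their values were seen. For likeness it names the 3 nearest genes to Txn1 and to Txnip. Positions and promoters are from RefSeq (GRCm38.p6), with 9 of 10 genes matched to a promoter. Exon lengths and overlaps are from GENCODE M1 (NCBIM37). Copies of coding sequences were searched with BLAST+ 2.17.0. Each SD comes from 1 pair of libraries. Wilson intervals and the limit for a count of 0 cover counting error only, whereas intervals of log2 fold changes include the spread between replicates. A preset cell type marker is not reported here.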

Additional observations from a re-analysis of the deposited data

How the results depend on the processing

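In 12 alternative analyses, Txn1 (log2 fold change 0.45 to 0.64), Txnip (-0.86 to -0.68), Prdx1 (0.40 to 0.50), Prdx4 (0.42 to 0.56) and Srxn1 (1.63 to 1.81) stayed called in the same direction, and Prdx5 stayed uncalled. Testing all genes with at least 1 count left 524 genes higher and 304 lower, 9 genes of the related lists higher and 0 lower, and ended the calls of Txnrd1 (adjusted p = 0.176) and Prdx3 (0.0632), and list genes such as Gclm, Nqo1, Ero1a, Arrdc4 and Sesn3. Their log2 fold changes barely moved there (Txnrd1 0.31, Prdx3 0.30), while the adjusted p of Txn1 and of Txnip rose to 0.0249 and 0.0129. With library size only, 980 genes were higher and 1810 lower, and Prdx6 was at -0.033 where the median of all genes moved by -0.065. The other scalings kept the sign of Prdx6. At the study's threshold 641 genes were higher and 787 lower, and 2 of the 10 genes higher. Leaving out each library in turn gave 893 to 1199 genes higher and 710 to 1158 lower, 12 to 23 list genes higher and 1 to 3 lower, and -0.041 (without Mock replicate 2) to 0.11 for Prdx6, with the fewest calls without FeSO4 replicate 1. There the lone library of a group is assumed to vary like the other group. The share of counts held by the 10 genes in Mock was 0.194% with TMM-scaled library sizes against 0.198%. The labels number the libraries 1 and 2 in both groups. As no source ties the number to an experiment, it was not taken as a pairing in the main fit. Deviations of same-numbered libraries correlated at 0.0293 over 13732 genes, a value over all genes that cannot exclude a pairing. With the replicate block, Prdx2 was called (0.18, adjusted p = 0.0295, against 0.0634 to 0.516 in the other alternatives, with log2 fold changes from 0.11 with library size only or without FeSO4 replicate 1 to 0.25 without FeSO4 replicate 2), 1847 genes were higher and 1580 lower, and no call of the 10 genes was lost. DESeq2 did not call Nqo1 (adjusted p = 0.0509). The causes were not tested. The older form of edgeR's test and the transcript lengths were added after the data were seen.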
